A study of Mus musculus with 11 samples.

Results

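Transcripts of 10 genes that mark the cells lining blood vessels were followed in RNA sequencing of injured and uninjured heart regions from 2 inbred mouse strains. The rule for choosing them is a list of names, genes of endothelial identity or of angiogenic receptors, drawn up with earlier results of these data known. They are Kdr, Flt1, Tek, Tie1, Eng, Cdh5, Pecam1, Emcn, Vwf and Egfl7, which make up 10 of the 15274 genes in the deposited table, and all 10 were among the 14751 genes with enough signal to be tested. The groups were C3H/HeJ (C3H) injured regions (n = 2), C3H uninjured regions (n = 3), C57BL/6J (B6) injured regions (n = 3) and B6 uninjured regions (n = 3). All mice were 8 weeks old, no transgene or drug is named, and the library titles give day 7. C3H/HeJ is an inbred strain known to carry a defective Tlr4 allele. The sources used here give neither the kind of injury nor how the injured and uninjured regions were delimited. Uninjured regions were taken to come from hearts that also had an injured region, so they are not treated as tissue from intact animals. Libraries of the same strain and number were taken to come from the same mouse. For C3H mouse 3 only an uninjured library was analysed here.

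Endothelial cells form the inner wall of every vessel and of the heart chambers, and in the heart muscle most of them line capillaries. Vascular endothelial growth factors (VEGF) act on them through the receptors encoded by Kdr and Flt1, and angiopoietins act through the receptor encoded by Tek together with its partner Tie1. Adhesion proteins at the cell borders, such as those of Cdh5 and Pecam1, hold the lining together, and secreted proteins such as those of Vwf and Egfl7 reach the blood or the matrix. In tissue pieces, fewer cells of a type and less RNA per cell cannot be told apart.

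Values are read counts per gene that the authors divided by 1 size factor per library, so that libraries can be compared gene by gene. Differences are log2 fold changes with their standard error (SE), and a call is an adjusted p under 0.05 over all genes tested, from limma with Benjamini-Hochberg adjustment. Gene-assigned reads ranged from 9699985 (B6 uninjured library 2) to 22138459 (C3H uninjured library 3), and each of the 10 genes had at least 145 reads in every library. The Xist level ran from 1840 to 8478 in the 5 C3H libraries and from 3.14 to 12.2 in the 6 B6 libraries, while the Y-linked Ddx3y ran from 0.888 to 3.46 in C3H and from 1429 to 2221 in B6. Strain and sex therefore cannot be told apart in any comparison between the strains.

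The sequences shown are start-site windows of Egfl7 and Emcn, since these are the only members called lower in injured C3H regions. Windows of 250 bases before an annotated RefSeq transcript start (build GRCm38.p6) were at hand for 7 of the 10 genes, 9 windows in all, with 3 starts for Egfl7. They were searched on both strands for CAGGAAG, a site of the ETS factor family, whose member ERG is a known regulator of endothelial genes. They were also searched for a site of the GATA factors, AGATAA, and no window held both. Of 32851 windows of the same length, 3554 (10.8%) held the ETS site and 9.99% the GATA site, on either strand. Among the 9 windows, the ETS site was found in the first and the second Egfl7 window and in the Emcn window, and the GATA site in none. The third Egfl7 window and those of Kdr, Flt1, Tek, Tie1 and Eng held neither of these exact strings. Other spellings of ETS or GATA sites were not searched, so windows without a match may hold such forms. No contrast between the genes is drawn from these matches. A match is a description of the letters and not a bound site. Only the Egfl7 and Emcn windows with an ETS match are printed, so the third Egfl7 window is left out. The ETS match is in capitals, and the windows are given 5′ to 3′ on the strand of the gene, which is + for both genes.
Egfl7, first start, chr2:26580833-26581082: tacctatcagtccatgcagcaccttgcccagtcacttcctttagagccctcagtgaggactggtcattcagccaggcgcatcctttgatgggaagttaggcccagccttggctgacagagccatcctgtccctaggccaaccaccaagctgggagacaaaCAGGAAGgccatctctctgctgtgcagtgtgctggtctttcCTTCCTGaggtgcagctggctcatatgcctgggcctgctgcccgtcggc
Egfl7, second start, chr2:26583615-26583864: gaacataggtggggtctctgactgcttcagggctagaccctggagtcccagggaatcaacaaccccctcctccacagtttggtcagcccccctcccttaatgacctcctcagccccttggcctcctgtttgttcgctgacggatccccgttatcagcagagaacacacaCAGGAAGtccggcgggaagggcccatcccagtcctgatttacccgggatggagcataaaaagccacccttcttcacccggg
Emcn, chr3:137340828-137341077: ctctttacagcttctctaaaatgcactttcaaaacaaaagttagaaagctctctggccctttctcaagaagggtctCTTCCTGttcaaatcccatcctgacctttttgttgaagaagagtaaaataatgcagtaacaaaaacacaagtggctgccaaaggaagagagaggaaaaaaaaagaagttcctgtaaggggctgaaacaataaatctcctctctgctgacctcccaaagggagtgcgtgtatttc

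Egfl7 is also the host gene of miR-126, a microRNA abundant in endothelium. The mature miR-126a-3p lies at chr2:26591402-26591423 on the + strand (RefSeq, GRCm38.p6), inside Egfl7 and outside the exons of its coding transcripts, with its seed (bases 2 to 8) in capitals below. It has no row in the count table, so its level was not measured here.
miR-126a-3p: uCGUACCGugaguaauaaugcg

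In C3H hearts, the endothelial surface gene Emcn and the secreted-factor gene Egfl7 were lower in injured than in uninjured regions. Emcn encodes endomucin, a heavily glycosylated surface protein of capillary and venous endothelium. Its normalised counts were 824 and 483 in C3H injured regions, against 1016, 1141 and 1285 in C3H uninjured regions. Both injured values lay below all 3 uninjured ones, with a mean of 654 ± 241 in injured regions (SD, n = 2) and 1147 ± 135 in uninjured regions (SD, n = 3). The log2 change was -0.85 (SE 0.27, limma adjusted p = 0.0314), a level 0.553 times that of uninjured regions (95% interval 0.368 to 0.831).

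Egfl7 encodes a secreted protein that binds the vessel matrix and is made mainly by endothelial cells. It had 1348 and 981 normalised counts in C3H injured regions, against 2020, 1749 and 2733 in C3H uninjured regions. The groups did not overlap, and the mean was 1164 ± 260 in injured regions (SD, n = 2) and 2167 ± 508 in uninjured regions (SD, n = 3). The log2 change was -0.89 (SE 0.30, limma adjusted p = 0.0427), a level 0.540 times that of uninjured regions (95% interval 0.342 to 0.852). The exons of Egfl7 overlap those of Agpat2, a lipid synthesis gene on the other strand, and the sources used here do not say whether the counting used strand, so reads of the pair cannot be told apart. Agpat2 itself had 579 and 383 normalised counts in C3H injured regions, against 771, 594 and 1018 in C3H uninjured regions, a log2 change of -0.72 (SE 0.25).

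Tie1, an orphan receptor of the angiopoietin system that pairs with the Tek product, had 1622 and 1385 normalised counts in C3H injured regions, against 2435, 1836 and 2482 in C3H uninjured regions. Its groups did not overlap either, but the log2 change of -0.57 (SE 0.21) missed the threshold (limma adjusted p = 0.0605). With the animal as a random block it passed (-0.54, adjusted p = 0.0221), as did 21.1% of all genes in that direction, and with the animal as a fixed block it did not (-0.50, adjusted p = 0.0753). DESeq2 on the recovered reads called it too (-0.58, adjusted p = 0.0303), with 18.4% of all genes called lower. Pecam1, the adhesion protein CD31, was the fourth gene without overlap, with 3952 and 3855 normalised counts in C3H injured regions, against 4540, 4678 and 4399 in C3H uninjured regions. That difference was small, at -0.22 (SE 0.19, limma adjusted p = 0.404).

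Thus 2 of the 10 genes were called lower and 0 higher in injured C3H regions, beside 15.4% of all tested genes called lower and 15.3% called higher (30.7% either way). The 2 in 10 called lower are near that background. Both injured libraries lay below all uninjured ones for 4 of the 10, and for 29.7% of all genes. The median log2 change of the 10 genes was -0.28 and that of all tested genes 0.01, with 8 of the 10 below 0. Single libraries carried both figures. The median was -0.042 without C3H uninjured library 1 and -0.059 without C3H injured library 2, each with 5 of the 10 below 0, and -0.46 and -0.50 without C3H uninjured library 2 or C3H injured library 1, each with 8 below 0. Under quantile normalisation, which put Eng, Cdh5 and Pecam1 above 0, the median was -0.045 with 5 below 0. Both calls depended on single libraries. Without C3H uninjured library 3, neither held (Emcn -0.77, adjusted p = 0.0952; Egfl7 -0.71, adjusted p = 0.140), and without C3H injured library 2, neither held (Emcn -0.47, adjusted p = 0.342; Egfl7 -0.66, adjusted p = 0.286). The Emcn call also ended without C3H uninjured library 2 (adjusted p = 0.0608) and in a fit to the 2 C3H groups alone (0.0604). Leaving out C3H uninjured library 1 (adjusted p = 0.0585), C3H injured library 1 (0.0665), B6 uninjured library 2 (0.0521) or either of B6 injured libraries 1 (0.0508) and 2 (0.0625) also ended the Egfl7 call. Tie1 passed without C3H uninjured library 2 (-0.71, adjusted p = 0.0341) or B6 uninjured library 3 (-0.57, adjusted p = 0.0461).

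**Figure D1:**
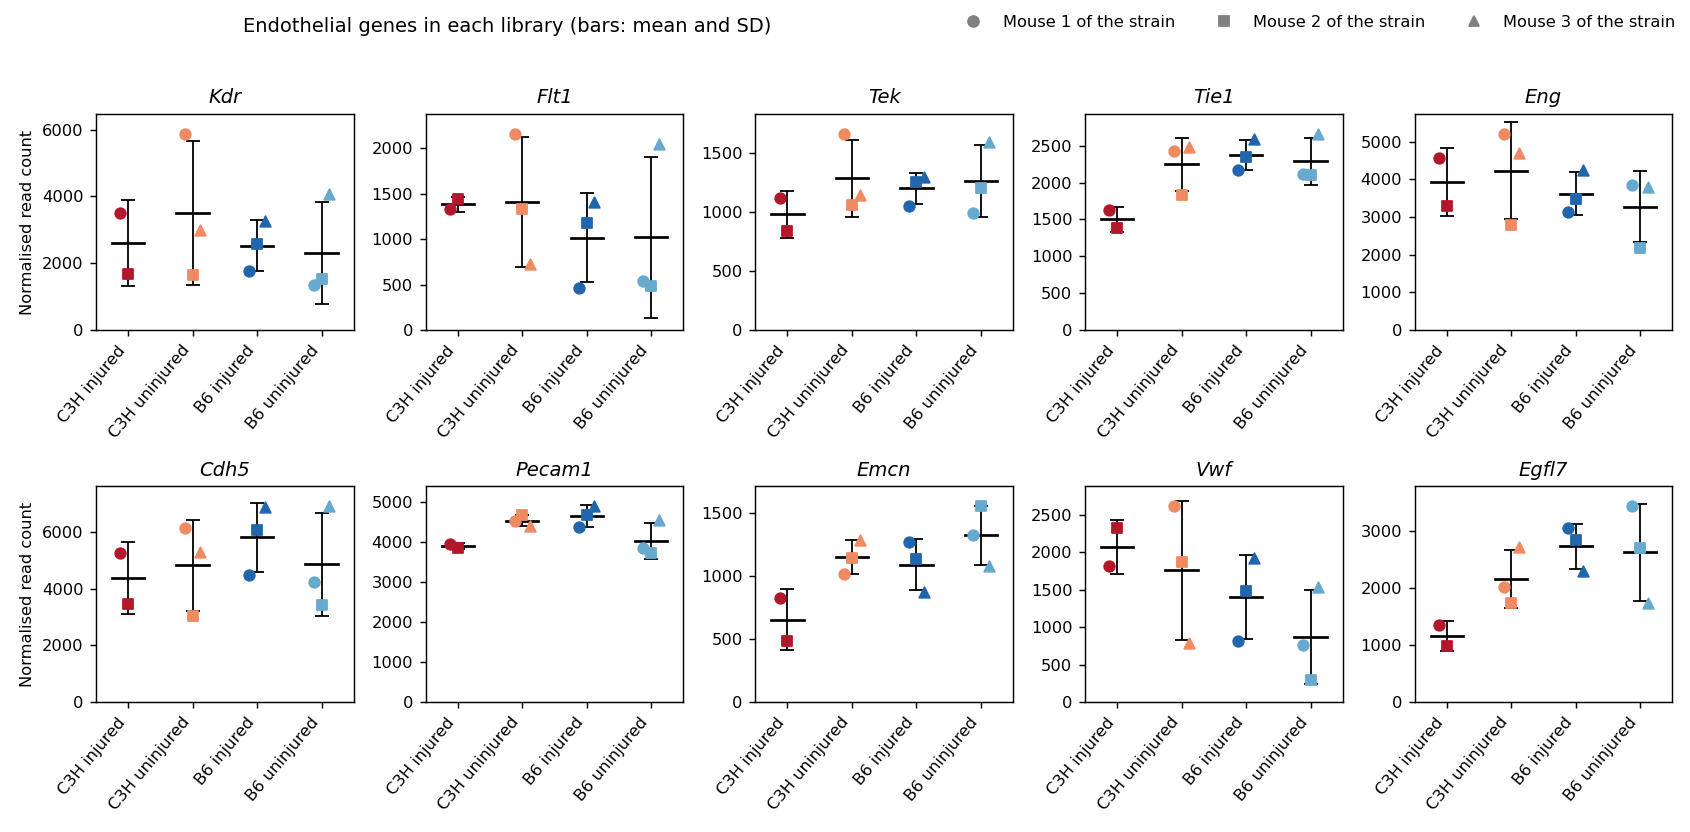
Normalised read counts of the 10 endothelial genes (vertical axis, from 0) in each library, by group (horizontal axis), with the mean as a bar, the SD as an error bar and the mouse number as the symbol. The 2 C3H injured libraries lie below the C3H uninjured ones for Tie1, Pecam1, Emcn and Egfl7, while the symbols of Kdr, Flt1 and Vwf spread widely within groups.

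The VEGF receptor genes showed no such separation. Kdr, which encodes the main signalling receptor for VEGF-A, had 3506 and 1683 normalised counts in C3H injured regions, against 5869, 1656 and 2998 in C3H uninjured regions. Both injured values lay within the uninjured range (log2 change -0.34, SE 0.56, limma adjusted p = 0.672). Flt1, whose product binds VEGF-A tightly and in its soluble form acts as a decoy, had 1325 and 1437 normalised counts in C3H injured regions, against 2156, 1325 and 730 in C3H uninjured regions. The injured pair lay inside the uninjured range (0.11, SE 0.63, limma adjusted p = 0.909). With such errors, the 95% intervals ran from 0.338 to 1.84 times the uninjured level for Kdr and from 0.417 to 2.80 times for Flt1, so sizeable changes either way were not detectable.

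Tek, which encodes the angiopoietin receptor Tie2, had 1120 and 841 normalised counts in C3H injured regions, against 1661, 1057 and 1140 in C3H uninjured regions. Injured library 1 lay above the lowest uninjured library (log2 change -0.38, SE 0.27, limma adjusted p = 0.303). Eng, which encodes endoglin, a coreceptor for ligands of the TGF-beta and BMP family, had 4574 and 3294 normalised counts in C3H injured regions, against 5206, 2782 and 4703 in C3H uninjured regions. Both injured values lay within the uninjured range (-0.07, SE 0.33, limma adjusted p = 0.882). Exons of Eng overlap those of Fpgs on the other strand, which had at most 206 normalised counts in any library, against at least 2188 for Eng.

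Cdh5, which encodes the adherens junction protein VE-cadherin, had 5273 and 3470 normalised counts in C3H injured regions, against 6132, 3028 and 5309 in C3H uninjured regions. Both injured values lay within the uninjured range (log2 change -0.11, SE 0.37, limma adjusted p = 0.841). Vwf, which encodes the platelet-binding von Willebrand factor, had 1819 and 2319 normalised counts in C3H injured regions, against 2616, 1875 and 781 in C3H uninjured regions. Both injured values again lay within the uninjured range (0.39, SE 0.63, limma adjusted p = 0.663), and the 95% interval ran from 0.511 to 3.37 times the uninjured level.

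In B6 hearts, no gene of the 10 was called, and the injured and uninjured groups overlapped for all 10, where 9.83% of all genes lay wholly higher and 7.69% wholly lower in injured regions. Egfl7 had 3054, 2856 and 2295 normalised counts in B6 injured regions, against 3447, 2710 and 1737 in B6 uninjured regions (log2 change 0.10, SE 0.27). Emcn had 1266, 1130 and 869 in B6 injured regions, against 1324, 1553 and 1082 in B6 uninjured regions (-0.28, SE 0.24). In both genes mouse 3 had the lowest value of its region.

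Tie1 had 2178, 2351 and 2586 normalised counts in B6 injured regions, against 2114, 2097 and 2661 in B6 uninjured regions (log2 change 0.06, SE 0.19). Within each mouse the regions differed by 0.17 or less on the log2 scale. Tek had 1050, 1257 and 1295 in B6 injured regions, against 988, 1203 and 1594 in B6 uninjured regions (-0.05, SE 0.24). Pecam1 had 4374, 4690 and 4907 in B6 injured regions, against 3845, 3718 and 4552 in B6 uninjured regions (0.21, SE 0.17). All 3 B6 animals had more Pecam1 in the injured region, though the groups overlapped.

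Kdr, Flt1 and Vwf spread widely within each B6 group. Kdr had 1764, 2562 and 3261 normalised counts in B6 injured regions, against 1336, 1524 and 4071 in B6 uninjured regions. Flt1 had 466, 1178 and 1402 in B6 injured regions, against 534, 483 and 2041 in B6 uninjured regions. Vwf had 809, 1483 and 1916 in B6 injured regions, against 762, 301 and 1534 in B6 uninjured regions. In all 3 genes B6 uninjured library 3 stood well above its group, and the log2 changes were 0.28 (SE 0.50) for Kdr, 0.18 (SE 0.56) for Flt1 and 0.90 (SE 0.56) for Vwf. Leaving out B6 uninjured library 2 gave 0.29 for Vwf, leaving out library 3 of that group gave 1.46, and all 3 values moved by over 1.5 times with single libraries left out. Eng had 3142, 3478 and 4246 in B6 injured regions, against 3838, 2188 and 3800 in B6 uninjured regions. Cdh5 had 4486, 6081 and 6871 in B6 injured regions, against 4231, 3445 and 6924 in B6 uninjured regions. Their log2 changes were 0.18 (SE 0.29) for Eng and 0.30 (SE 0.33) for Cdh5, with overlapping groups.

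Limma called 0 of the 10 genes in B6, and 0 had an unadjusted p under 0.05, as 13.4% of all genes had. The count was also 0 with edgeR and with DESeq2 on the recovered reads. Few genes of any kind were called in B6, 2 of 14751 (0.0136%) with limma and with edgeR and 0.305% with DESeq2. With the animal as a fixed or random block limma called 20 (0.136%) and 16 (0.108%). Limma adjusted p ran from 0.475 (Vwf) to 0.940 (Tek), and 8 of the 10 changes lay above 0 with a median of 0.18, against 0.01 for all genes. That median was 0.034 without B6 uninjured library 2 (5 of the 10 above 0), 0.065 without B6 injured library 3 (6 above 0), 0.090 without B6 uninjured library 1 (6 above 0) and 0.30 without B6 uninjured library 3 (8 above 0). It was 0.33 with quantile normalisation and 0.093 with DESeq2. Tek went above 0 with quantile normalisation, Tie1 below 0 after removal of the length trend and Flt1 below 0 with DESeq2.

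**Figure D2:**
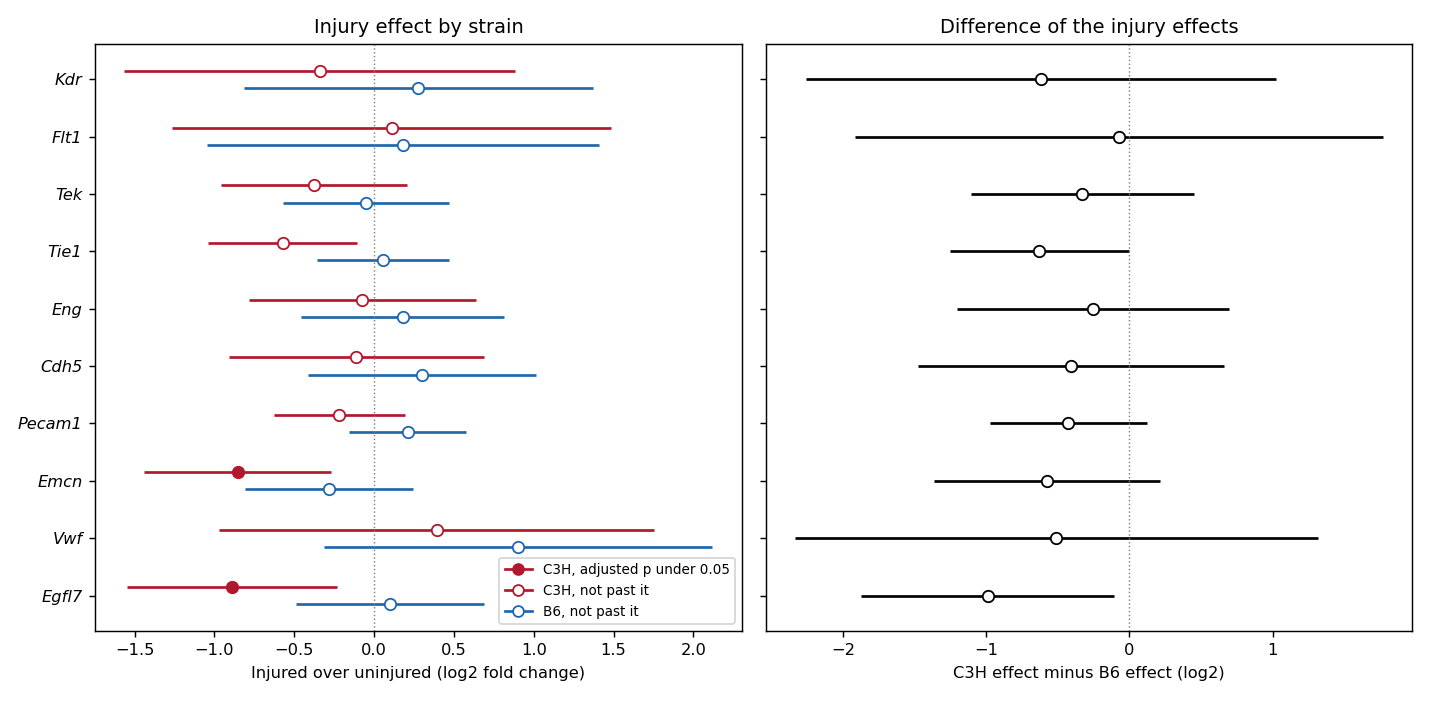
Log2 fold change of each endothelial gene between injured and uninjured regions by strain (left, C3H above B6) and the C3H effect minus the B6 effect (right), with points as estimates and lines as 95% intervals from the fit over 11 libraries. Filled points, Emcn and Egfl7 in C3H, have an adjusted p under 0.05, and all 10 differences in the right panel lie below 0 without passing that threshold.

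The injury effect was then compared between the strains in the same fit. Relative to B6, the C3H effect was lower for all 10 genes, by a median of -0.47 on the log2 scale against -0.02 for all genes, and so it was under every scaling and test tried, though not for Flt1, Eng and Vwf with some single libraries left out. The median was -0.16 without C3H injured library 2, -0.18 without C3H uninjured library 1 and -0.71 without B6 uninjured library 3. None of the differences was called. Egfl7 differed by -0.99 (SE 0.41, limma adjusted p = 0.296), Tie1 by -0.63 (SE 0.29, adjusted p = 0.349), and Kdr by -0.62 (SE 0.75, adjusted p = 0.771). Limma called 0 of the 10, edgeR 0 and DESeq2 0, while 2 (Egfl7 and Tie1) had an unadjusted p under 0.05, as 14.1% of all genes had. Of all tested genes limma called 1.57% in either direction and 0.0678% lower, edgeR 1.58% and DESeq2 4.89%. With the animal as a fixed or random block limma called 3.33% or 5.27%. The 10 genes share the same 11 libraries, so their common sign is not 10 separate observations.

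Within single animals, the log2 difference between injured and uninjured region was -0.58 and -0.83 for Egfl7 in C3H mice 1 and 2, against -0.17, 0.08 and 0.40 in B6 mice 1 to 3. For Emcn it was -0.30 and -1.24 in the C3H mice, against -0.06, -0.46 and -0.32 in the B6 mice, so that all 5 animals had less Emcn in the injured region. For Tie1 it was -0.59 and -0.41 in the C3H mice, against 0.04, 0.17 and -0.04 in the B6 mice. For Pecam1 it was -0.20 and -0.28 in the C3H mice, against 0.19, 0.33 and 0.11 in the B6 mice, with opposite signs in the strains. Vwf differed most between animals, at -0.52 and 0.31 in the C3H mice, against 0.09, 2.30 and 0.32 in the B6 mice. The shares of all genes with 1 sign in all 5 animals, or with opposite signs in the strains, were not counted.

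Between the strains, the injured regions differed in Egfl7. Its levels of 1348 and 981 in C3H injured regions lay below the 3054, 2856 and 2295 of B6 injured regions, a log2 difference of -1.24 (SE 0.30, limma adjusted p = 0.0322) or 0.424 times the B6 level (95% interval 0.269 to 0.669). Agpat2, whose exons overlap those of Egfl7, was lower as well (-1.01, limma adjusted p = 0.0365). Leaving out either C3H injured library ended this call (-1.47, adjusted p = 0.0602 without library 1; -1.01, adjusted p = 0.381 without library 2). So did leaving out B6 injured library 1 (-1.15, adjusted p = 0.114) or 2 (-1.20, adjusted p = 0.0981). Tie1 (-0.66, SE 0.21, limma adjusted p = 0.0857), Emcn (-0.77, SE 0.27, adjusted p = 0.108) and Pecam1 (-0.25, SE 0.19, adjusted p = 0.444) also had both C3H injured libraries below all B6 injured ones but were not called. That made 1 of 10 genes called lower, where 3.34% of all genes were called lower and 7.06% either way, and 4 of 10 without overlap, where 24.2% of all genes were. This comparison shares its C3H injured libraries with the injury comparison in C3H, so it is not a second, separate observation of low Egfl7.

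In uninjured regions no gene of the 10 was called between the strains, and the groups overlapped for all 10. Limma, edgeR and DESeq2 each called 0 of them, where they called 3.1%, 2.76% and 6.21% of all genes. An unadjusted p under 0.05 was reached by 0 of them and by 16.3% of all genes, and 7.63% of all genes lay wholly higher and 9.27% wholly lower in C3H. Egfl7 had 2020, 1749 and 2733 normalised counts in C3H uninjured regions, against 3447, 2710 and 1737 in B6 uninjured regions (-0.25, SE 0.27). The widest difference was that of Vwf, with 2616, 1875 and 781 in C3H uninjured regions, against 762, 301 and 1534 in B6 uninjured regions (1.15, SE 0.56, limma adjusted p = 0.338).

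The members differed greatly in how much they varied between mice of the same group. The SD of log2 values within groups was 0.098 for Pecam1, and 0.499% of the genes with a mean of at least 50 had a smaller one. It was 0.19 for Tie1, 0.77 for Kdr, 0.87 for Vwf and 0.88 for Flt1, larger than in 94.7%, 96.4% and 96.5% of those genes, where the median gene had 0.34. From the lowest to the highest library, Vwf spanned 8.70-fold, Flt1 4.63-fold and Pecam1 1.32-fold.

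The 3 genes with the largest spread also had the longest transcripts of the 10. Among the others the SD showed no steady order with length. From the shortest transcript to the longest, it was 0.36 for Egfl7, 0.30 for Emcn, 0.40 for Eng and 0.098 for Pecam1. It was then 0.46 for Cdh5, 0.19 for Tie1 and 0.30 for Tek. A link between spread and length was not tested. The longest coding transcript has 5924 bases for Kdr, 6895 for Flt1 and 8834 for Vwf, and the shortest are those of Egfl7 (1391) and Emcn (2588). Across 14652 tested genes with a length, the deviation of a library from the gene mean correlated with length at a Spearman rho of 0.383 and 0.370 in the C3H injured libraries and 0.313, -0.130 and -0.300 in the C3H uninjured libraries. In B6 it was -0.483, 0.004 and 0.422 in the injured libraries and -0.558, -0.464 and 0.342 in the uninjured ones. These are correlations across genes within 1 library, and genes are not independent replicates. Both C3H injured libraries thus had relatively high counts of long transcripts, as did C3H uninjured library 1, B6 injured library 3 and B6 uninjured library 3. Kdr, Flt1 and Vwf all lay above their own means over the libraries in 4 of these 5, and in C3H injured library 2 Flt1 and Vwf lay above and Kdr below (-0.55). Of the 5 libraries with negative correlations, all 3 genes lay below their means in B6 injured library 1 and B6 uninjured libraries 1 and 2. In C3H uninjured library 2, Flt1 (0.34) and Vwf (0.57) lay above and Kdr below, and in C3H uninjured library 3 Kdr (0.28) lay above and the other two below.

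After a smooth trend with the longest coding transcript was removed from each library, an alternative chosen after the data were seen, the C3H injury effect was -0.76 for Tie1 (adjusted p = 0.00378), -0.62 for Tek (adjusted p = 0.0261) and -0.79 for Emcn (adjusted p = 0.0170). These 3 were called, among 17.9% of all genes called lower, and Egfl7 was not (-0.42, adjusted p = 0.125). With the longest transcript of any kind, which for Egfl7 is 1865 bases, Egfl7 stayed called (-0.59, adjusted p = 0.0456), as did Tie1 (-0.71, adjusted p = 0.00695), Tek (-0.58, adjusted p = 0.0444) and Emcn (-0.88, adjusted p = 0.0196), among 17.3% of all genes. Between the strains in injured regions, Egfl7 was called with both lengths (-0.85, adjusted p = 0.0230 and -0.97, adjusted p = 0.0152), and so was Tie1 (-0.81, adjusted p = 0.00987 and -0.76, adjusted p = 0.0159), where 4.19% and 4.08% of all genes were called lower. Emcn was called lower in injured C3H regions without the adjustment and with it under both lengths, and Egfl7 under 1 of them.

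**Figure D3:**
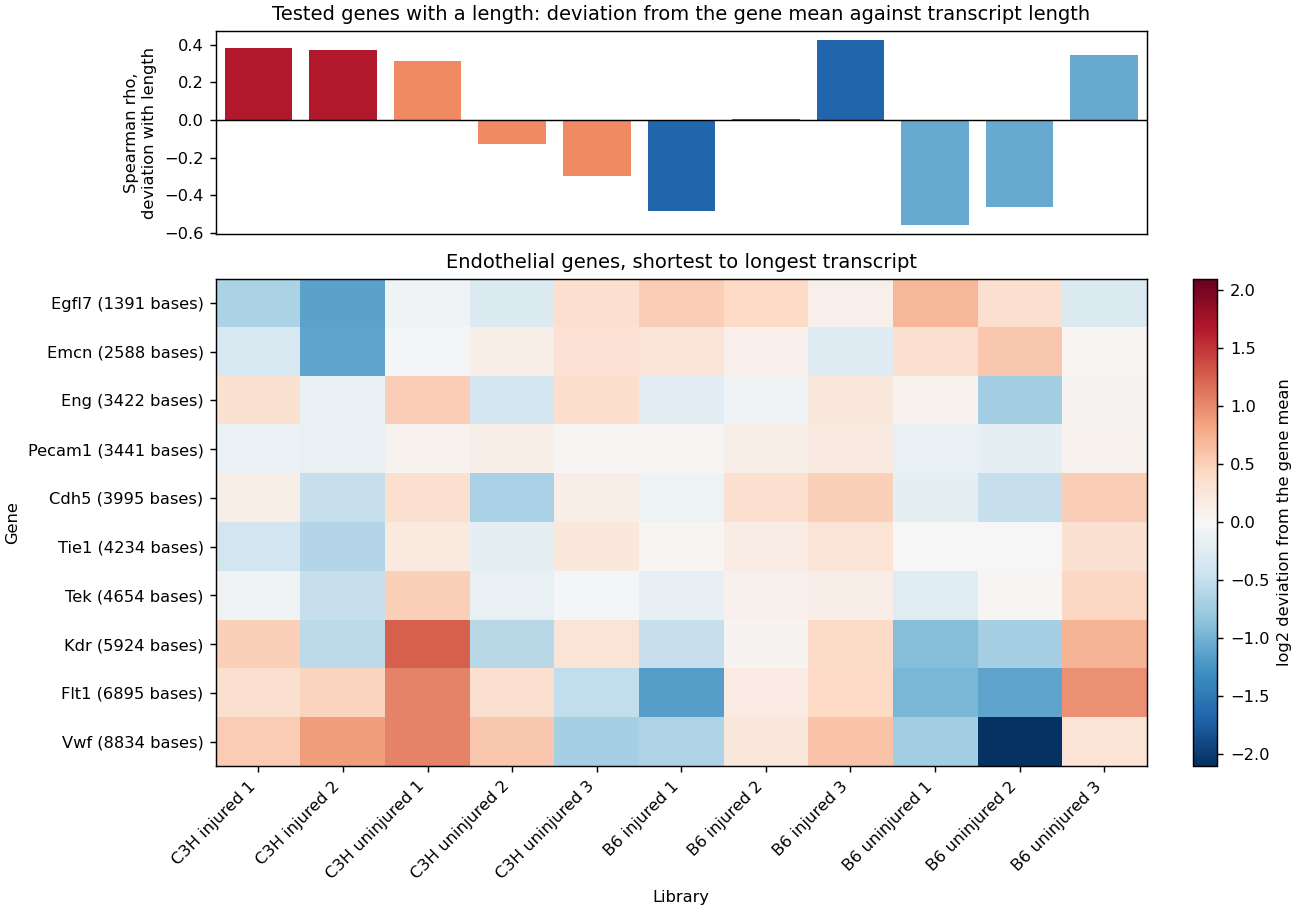
Top, Spearman correlation across tested genes of the deviation from the gene mean with transcript length (vertical axis), by library (horizontal axis). Bottom, log2 deviation of each endothelial gene from its own mean over 11 libraries (colour), with genes from shortest to longest coding transcript. Kdr, Flt1 and Vwf are all above their means in 4 of the 5 libraries with correlations from 0.313 to 0.422, where the exception is Kdr in C3H injured library 2, and Egfl7 is low in both C3H injured libraries.

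The genes whose pattern over the 11 libraries was most like the mean of the 10 members (each scaled to its own mean and SD) were Col4a4 (Pearson r 0.968), Emp2 (0.952), Rabl6 (0.946), Epn2 (0.946) and She (0.940). They were picked as the highest of 12005 genes, over 11 libraries that share their depth and length trends.

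Ligand genes of the VEGF and angiopoietin families moved in both directions in C3H hearts. Of 5 VEGF family genes, 2 fell and 1 rose in injured regions, with a median log2 change of -0.93 against 0.01 for all genes, of which 15.3% rose and 15.4% fell. Vegfb fell by 1.77 on the log2 scale (SE 0.26, limma adjusted p = 0.000567), to 1919 to 2787 normalised counts in C3H injured regions, against 6588 to 10057 in C3H uninjured regions. Vegfa, the main ligand of the Kdr and Flt1 products, fell by 1.20 (SE 0.24, adjusted p = 0.00351), to 1837 to 2246 in C3H injured regions, against 3902 to 5542 in C3H uninjured regions. Figf, the gene of VEGF-D, a ligand for the lymphatic receptor encoded by Flt4, rose by 1.61 (SE 0.42, adjusted p = 0.0129), to 238 to 353 in C3H injured regions, against 66.6 to 119 in C3H uninjured regions. Of 3 other VEGF receptors and coreceptors, Nrp2 rose (1.60, SE 0.54, adjusted p = 0.0411). Among 3 angiopoietin genes and the receptor phosphatase gene Ptprb, 1 rose, the angiopoietin gene Angpt4 (adjusted p = 0.0130), which was named after its values were seen. Its counts were low, at 16.4 and 9.19 in C3H injured regions, against 0.990, 3.14 and 0 in C3H uninjured regions. Ptprb, whose product removes phosphate from Tie2, had a log2 change of 0.37 (SE 0.43, adjusted p = 0.548). In B6, Figf also lay wholly higher in injured regions (713 to 779 against 196 to 607 normalised counts), without a call. Vegfb lay wholly lower in B6 injured regions (3887 to 4932 against 5601 to 7393), also without a call, and Vegfa overlapped.

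Notch genes, which set the balance of tip and stalk cells in sprouting vessels, were called about as often as all genes in C3H hearts, 3 lower and 1 higher of 13, where 30.7% of all genes were called either way. Their median was -0.67. The arterial Notch ligand Dll4 fell by 1.23 (SE 0.26, limma adjusted p = 0.00475), to 196 to 319 normalised counts in C3H injured regions, against 489 to 647 in C3H uninjured regions. The Notch targets Hey1 (-1.04, SE 0.27) and Hes1 (-1.03, SE 0.35) fell too, while the ligand gene Jag1 rose (1.11, SE 0.27). Among 10 partners and targets of endoglin signalling, Id1 (-1.27, SE 0.33) and the inhibitory Smad6 (-0.94, SE 0.23) fell, and Id2 (1.80, SE 0.36) and the receptor gene Tgfbr2 (1.29, SE 0.26) rose. Smad6 had 186 to 247 normalised counts in C3H injured regions and 367 to 459 in C3H uninjured regions, against 335 to 435 in B6 injured regions and 220 to 258 in B6 uninjured regions. Its injury effect differed between the strains by -1.55 (SE 0.31, limma adjusted p = 0.0296).

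Of 16 endothelial transcription factor genes, Tcf15, a factor of heart capillary endothelium, fell by 2.14 (SE 0.44, limma adjusted p = 0.00402), and Lyl1 (1.36, SE 0.30) and Elk3 (0.73, SE 0.25) rose. Their list median was -0.003. Among 24 other endothelial identity genes, 5 fell and 2 rose in C3H, near the 30.7% of all genes called either way, with a median of -0.23. Gpihbp1, which carries lipoprotein lipase to the capillary surface, fell by 1.39 (SE 0.34, limma adjusted p = 0.00942), to 476 to 658 normalised counts in C3H injured regions, against 913 to 2049 in C3H uninjured regions. Rasip1, needed for vessel lumens, fell by 0.99 (SE 0.23, adjusted p = 0.00790). Plvap, the diaphragm protein of fenestrated endothelium, rose by 1.61 (SE 0.35, adjusted p = 0.00520), and Cd93, also made by myeloid cells, rose by 1.60 (SE 0.48, adjusted p = 0.0243). The summed level of these 24 genes was 25917 to 28973 in C3H injured regions and 26270 to 30244 in C3H uninjured regions, against 31194 to 33421 in B6 injured regions and 26155 to 31360 in B6 uninjured regions, so the C3H sums overlapped between regions.

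The counts of the next 5 lists stand beside 15.4% of all genes called lower and 15.3% called higher in C3H. Of 12 junction partners of VE-cadherin, 3 fell and 0 rose in C3H. They were F11r (-0.90, SE 0.22), Jup (-0.90, SE 0.21) and Ctnna1 (-0.74, SE 0.26), which heart muscle cells also use at their own junctions. Of 8 tested activation genes, Vcam1, an adhesion receptor for leukocytes, rose (1.84, SE 0.34), as did the protein C receptor gene Procr (1.23, SE 0.34). In the Vwf pathway 1 of 6 tested genes rose, the integrin gene Itgb3 (3.20, SE 0.37, limma adjusted p = 0.000148), which platelets and macrophages also make. Of 8 hypoxia regulators, Egln1 (-1.36, SE 0.25) and Egln3 (-1.43, SE 0.50) fell and Hif1a rose (0.92, SE 0.18), as did Car9, called but below the mean count set for naming. Of 10 genes of vessel guidance and matrix inhibitors, the angiogenesis inhibitors Thbs1 (3.73, SE 0.81) and Thbs2 (2.51, SE 0.39) and the guidance factor Slit2 (2.35, SE 0.33) rose and 0 fell. No adjusted p of these named genes in B6 was below 0.364.

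**Figure D4:**
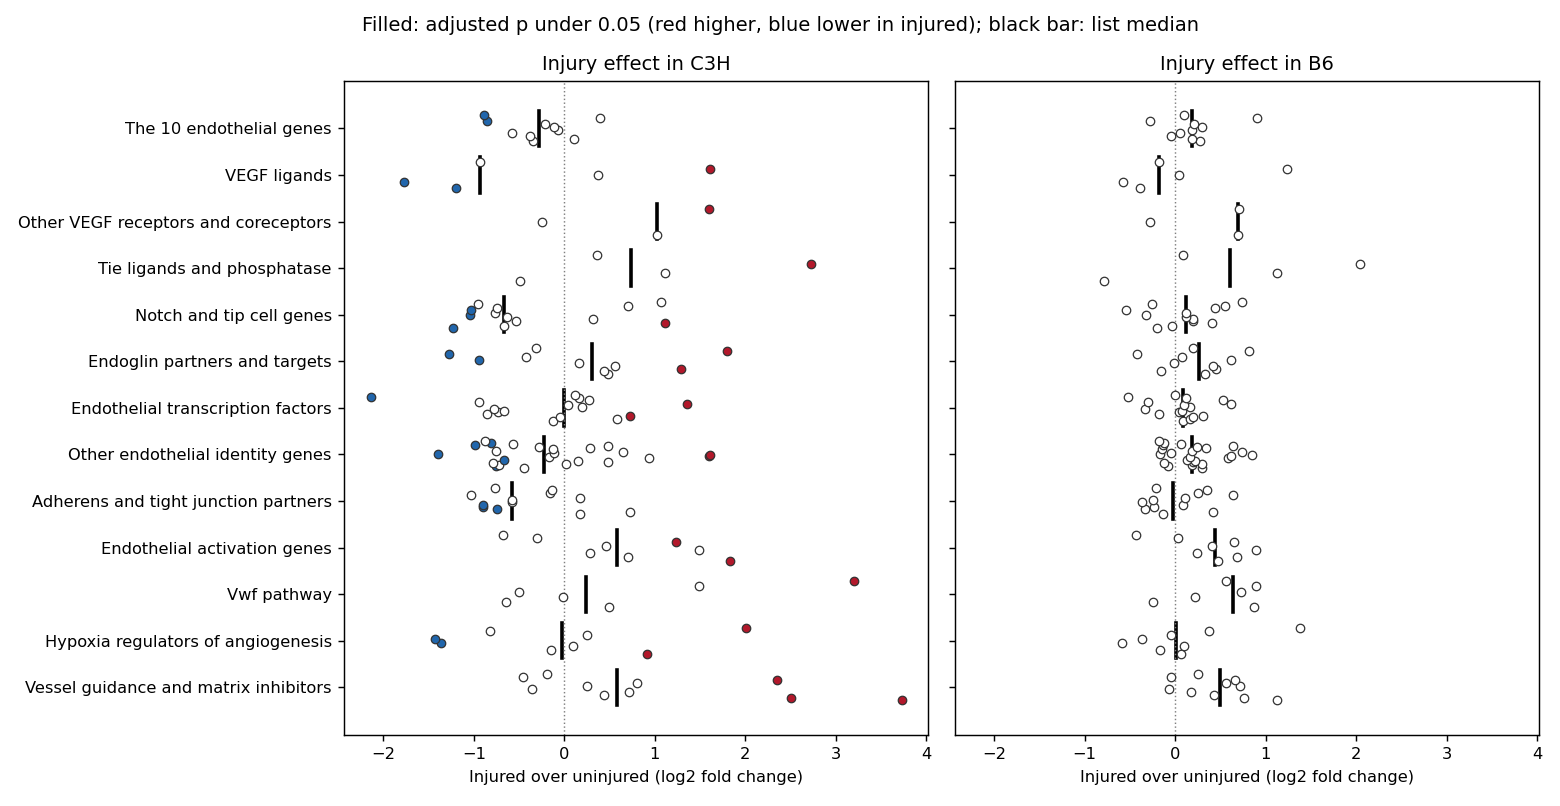
Log2 fold changes between injured and uninjured regions (horizontal axis) of the 10 endothelial genes and of 12 lists of related genes (rows) in C3H (left) and B6 (right). Each point is a gene, filled where the adjusted p is under 0.05, and black bars are list medians. In C3H called genes lie on both sides of 0, and in B6 there are no filled points.

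Markers of macrophages, cardiomyocytes and fibroblasts shifted in injured C3H regions, beside 15.3% of all genes called higher and 15.4% called lower. In B6 no marker of these lists was called, but the sums of all 3 lists did not overlap between regions there either. All 9 tested macrophage and monocyte markers rose in injured C3H regions, with Cd68 up by 4.09 (SE 0.26) and Adgre1 by 3.56 (SE 0.35), and their summed level was 74593 to 129837 in C3H injured regions and 12063 to 20161 in C3H uninjured regions, against 35360 to 50110 in B6 injured regions and 21933 to 31157 in B6 uninjured regions. Of 8 cardiomyocyte markers 6 fell and 0 rose, and their sums were 540983 to 614829 in C3H injured regions and 1595000 to 1978610 in C3H uninjured regions, against 904743 to 1130860 in B6 injured regions and 1498130 to 1790030 in B6 uninjured regions. Of 7 fibroblast markers 4 rose, with sums of 333075 to 461039 in C3H injured regions and 41790 to 156468 in C3H uninjured regions, against 209236 to 235478 in B6 injured regions and 99985 to 195327 in B6 uninjured regions. No marker of these 3 lists was at 0 in any library, and the part of these shifts in the lower Emcn and Egfl7 of injured C3H regions was not tested.

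Other vessel and blood markers gave mixed counts in C3H, beside the same 15.3% of all genes called higher and 15.4% called lower. Of 8 mural cell markers Pdgfrb rose (1.24, SE 0.37) and Kcnj8 fell (-1.24, SE 0.22), and the sums overlapped, at 17496 to 25565 in C3H injured and 16453 to 29997 in C3H uninjured regions. Of 4 lymphatic markers Pdpn, also made by fibroblasts, rose (2.58, SE 0.33), and of 3 endocardial markers Npr3 (-1.84, SE 0.45) and Cytl1 (-2.04, SE 0.34) fell and Nfatc1 rose (1.39, SE 0.31). Of 6 platelet and megakaryocyte markers only Itgb3 rose, and 5 had changes below 0. Their sums were 958 to 1650 in C3H injured regions and 449 to 722 in C3H uninjured regions, against 650 to 1000.5 in B6 injured regions and 524 to 1161 in B6 uninjured regions. Without Itgb3 they were 300.1 to 379 in C3H injured regions, against 328 to 625 in C3H uninjured regions. Of 5 cartilage and bone markers 2 were found and only 1 was tested, the cartilage matrix gene Acan. Acan was called higher, with 199.8 and 104 normalised counts in C3H injured regions, against 0.990, 3.14 and 0 in C3H uninjured regions. The erythroid marker Alas2 (-1.20, SE 0.59) and the T cell marker Cd3e (0.05, SE 0.66) were not called in C3H.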

How the data were processed

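Heart regions of 6 mice gave 11 RNA sequencing libraries in 4 groups, from total RNA extracted with a column kit, per the labels' protocols. Per the submitters' processing notes, the authors used TopHat2 2.0.11, HTSeq 0.6.1, DESeq and mouse build mm9. Annotation, strandedness and the version of DESeq were not stated there. The deposited signal is read counts per gene over 1 size factor per library, since 100% of the values were whole multiples of 1 step per library (tolerance 1e-06), and these multiples gave the recovered reads. Depth was 9699985 to 22138459 reads per library, which limits the precision for genes with low counts. The annotation used here is of GRCm38, so no mm9 coordinates are given.

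Values entered the tests as log2(normalised count + 1), a scale that understates changes of genes with low counts. The 14751 genes that reached 10 in 2 or more libraries were tested, and 523 were not. Limma 3.58.1 (R 4.3.3) fitted 4 group means to the 11 libraries, with empirical Bayes moderation along a trend with the mean and two-sided tests of 5 comparisons (7 residual degrees of freedom). P-values were adjusted by Benjamini-Hochberg over the genes tested. Libraries of the same strain and number in their titles were taken as pairs from 1 heart (5 pairs), an inference from those titles. Residuals of a pair correlated at 0.276, -0.0140 and 0.524 in B6 and 0.305 and 0.575 in C3H. Alternatives were pseudocounts of 0.5 and 5, no filter, TMM and quantile normalisation, edgeR 4.0.16 and DESeq2 1.42.0 on recovered reads, the animal as a replicate block, only the groups compared, and each library left out. Removal of a transcript length trend (GENCODE lengths, found for 99.3% of tested genes) was added after the data were seen. The fits were also tested on simulated data, and the outcome is not given here.

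The 10 genes and all lists of related genes and markers were chosen with earlier results of these data known. Of 174 list symbols 167 were found and 164 tested. Named from each list were up to 4 called genes of largest change in C3H with a mean of at least 50, or else the most abundant member. The 5 genes of most similar pattern were those of highest Pearson correlation with the mean z-score of the 10 genes.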

Additional observations from a re-analysis of the deposited data

Results flagged for a closer look

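Pecam1 was flagged because its difference between regions had opposite signs in the strains: it was lower in the injured region in both C3H animals with paired regions and higher in all 3 B6 animals. The C3H effect minus the B6 effect was -0.43 on the log2 scale (SE 0.25, limma adjusted p = 0.483), so the difference itself was not called. Pecam1 was picked by these signs in these same libraries, and the share of all genes with such signs was not counted. The remaining genes were flagged because the C3H effect minus the B6 effect passed the threshold (limma adjusted p under 0.05). These differences were -1.55 for the inhibitory signalling gene Smad6 (SE 0.31, adjusted p = 0.0296), 2.64 for the integrin gene Itgb3 (SE 0.49, adjusted p = 0.0226) and 2.02 for the lymphatic and stromal gene Pdpn (SE 0.45, adjusted p = 0.0460). They were 3.07 for Cd68 (SE 0.36, adjusted p = 0.00394), 2.54 for Adgre1 (SE 0.48, adjusted p = 0.0226) and 2.51 for Lyz2 (SE 0.44, adjusted p = 0.0162), all 3 macrophage genes. In these 6 genes every C3H injured library lay outside the range of the C3H uninjured ones. They were picked by a test that uses these same libraries, so this separation is not a further observation. Of all tested genes, 1.57% passed the threshold for the difference of effects.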

How the results depend on the processing

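The number of the 10 genes called lower in injured C3H regions (2) was 3 with DESeq2 and with the random block (Tie1 added), 3 with the coding length trend removed (Tie1, Tek and Emcn, without Egfl7), 4 with the length trend of any transcript removed and 1 with only the groups compared, and ran from 0 to 3 when 1 library was left out. In B6, for the difference of effects and in uninjured regions it was 0 under all alternatives. Between strains in injured regions (1) it was 2 (Tie1 and Egfl7) with DESeq2 and with either length trend removed, and 0 to 1 with 1 library left out. The replicate block changed no call of a member other than that of Tie1 in C3H, which the random block added. Over all genes, the count in C3H (4527) ran from 1708 to 5017 with 1 library left out. In B6 (2) it was 45 with DESeq2, 20 and 16 with a fixed and a random block, 5 with the coding length trend removed, and 1 to 6 with 1 library left out. For the difference of effects (231) it was 722 with DESeq2, 491 and 777 with the blocks, 480 and 422 with the length trends removed, and 10 to 272 with 1 library left out. In uninjured regions (458) it was 916 with DESeq2, 191 with only the groups compared, 773 and 727 with the length trends removed, and 213 to 788 with 1 library left out. In injured regions (1042) it was 2014 with DESeq2 and 101 to 1322 with 1 library left out. The causes were not tested. A fixed block allows no comparison between strains within uninjured or within injured regions, only one of their injury effects.

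Signs turned for uncalled changes. In C3H, quantile normalisation, which moved the median of all genes to -0.11, gave 0.203 for Eng, 0.204 for Cdh5 and 0.090 for Pecam1. Flt1 became -0.028 with edgeR, -0.024 with DESeq2, -0.293 and -0.047 with the fixed and random block, and -0.330 and -0.315 with the length trends removed. Vwf became -0.109 with the fixed block and -0.118 and -0.108 with the length trends removed, and Eng 0.028 with the fixed block. In B6, Tek became 0.042 (quantile), Flt1 -0.0069 (DESeq2) and Tie1 -0.048 and -0.025 (length). In uninjured regions Tie1 became 0.011 with TMM and with edgeR, Cdh5 0.029 and 0.017, and Tek -0.062 and -0.048 (length). In injured regions Kdr became 0.027 (edgeR) and 0.036 (DESeq2). With 1 library left out, the C3H effect ran from -0.87 to 0.19 for Kdr, -0.29 to 0.49 for Flt1, -0.35 to 0.16 for Eng, -0.42 to 0.19 for Cdh5 and -0.11 to 0.76 for Vwf. The B6 effect ran from -0.023 to 0.78 for Kdr, -0.19 to 0.85 for Flt1, -0.0085 to 0.17 for Tie1, -0.088 to 0.32 for Eng, -0.21 to 0.13 for Tek and -0.17 to 0.32 for Egfl7. The difference of effects ran from -0.74 to 0.31 for Flt1, -0.53 to 0.015 for Eng and -1.07 to 0.10 for Vwf. Between strains it ran from -0.17 to 0.21 for Tek, -0.11 to 0.11 for Tie1 and -0.23 to 0.29 for Cdh5 in uninjured regions, and from -0.54 to 0.52 for Kdr and -0.13 to 0.35 for Eng in injured regions.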
